A study of Mus musculus with 6 samples.

Results

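Integrins are the receptors by which cells hold on to the extracellular matrix, and focal adhesions are the protein assemblies that join them to actin filaments. The genes described here are 18 integrin subunits and 22 cytoplasmic partners, 40 of the 25006 genes counted. These genes, and those of the further lists below, were chosen by name and role with earlier results of these data known. They were measured in mouse ovarian surface epithelial (MOSE) cells, the sheet that covers the ovary, in 2 stable lines with 3 libraries each. MOSE-PAX8 overexpresses the transcription factor PAX8 and MOSE-NEO is the reference line, and both were kept under G418 at 0.05 mg/mL. The labels name 1 line per group and leave unsaid whether the 3 libraries of a line were grown apart. The p-values therefore speak only of library-to-library spread, which may be technical. The sources used here do not say how the lines were made, whether each is 1 clone, or the age or strain of the mice.

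An integrin is a dimer of 1 alpha and 1 beta subunit, and the pair sets the ligand: laminins, collagens, or proteins with the RGD motif such as fibronectin. Talin and kindlin bind the short tail of the beta subunit and switch the receptor on. Vinculin, alpha-actinin, filamin and tensin then couple it to actin, while focal adhesion kinase, Src, paxillin and p130Cas carry signals. The ovarian surface epithelium rests on a basement membrane, so laminin receptors are among its usual integrins.

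Pax8 checks the labels. Its counts were 0, 1 and 1 in the reference line against 2570, 2973 and 3544 in the PAX8 line. Markers of ovarian surface epithelium and mesothelium were abundant in both lines, where the 10 genes summed to 12563 to 13919 CPM (counts scaled to library size) in MOSE-NEO and 7275 to 8459 in MOSE-PAX8. Of these 10 genes 6 fell and 0 rose (60% called, that is, at an edgeR adjusted p below 0.05). Of all genes tested 33.9% were called, 17.9% higher and 16.1% lower. Krt8 and Krt19 were at or below 1.08 CPM in every library. The 8 leukocyte markers summed to 9.13 to 16.8 CPM in MOSE-NEO and 8.86 to 10.2 in MOSE-PAX8, with Adgre1 at 0 counts. Within that list Ptprc, a marker of all leukocytes, went from 1 count over the MOSE-NEO libraries to 196 over those of MOSE-PAX8, and Csf1r, the receptor of macrophage growth factors, fell 2.52-fold from 10.6 to 4.20 CPM (edgeR adjusted p = 0.000103 and 0.00373). The 6 granulosa and theca markers summed to 409.9 to 509.6 CPM in MOSE-NEO and 349.7 to 391 in MOSE-PAX8, with Fshr and Cyp19a1 at 0 counts. Star, which carries cholesterol into mitochondria, made up nearly all of these sums. It had 409.7 to 509.5 CPM in MOSE-NEO and 347.8 to 388.6 in MOSE-PAX8. Star fell 1.28-fold, and Foxl2, a granulosa cell transcription factor, went from 1 to 182 counts (edgeR adjusted p = 0.0282 and 0.000117). The 5 endothelial markers stayed below 1 CPM in sum and the 4 platelet markers between 2.13 and 4.43. The 6 fibroblast markers summed to 14466 to 17266 CPM in MOSE-NEO and 7210 to 8503 in MOSE-PAX8, carried by Dcn, Col1a1 and Col1a2, of which Col1a2 alone was called. The part of these shifts in the results below was not tested, and in bulk RNA fewer cells of a type cannot be told apart from less RNA per cell.

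Promoters are shown for 4 members, the integrin and the actin linker with the largest rise (Itga1 and Actn1), the common beta subunit Itgb1, and Vcl, the only one of the 4 that holds both motifs searched. The motifs were the CArG box, bound by serum response factor, and the TEAD motif GGAATG, each on both strands. Each line gives the 250 bases before the RefSeq start (GRCm38.p6), 5′ to 3′ on the strand of the gene, with motif matches in capitals. The windows are chr13:115101965-115102214 (minus strand), chr12:80260364-80260613 (minus), chr8:128685404-128685653 (plus) and chr14:20929148-20929397 (plus).
Itga1: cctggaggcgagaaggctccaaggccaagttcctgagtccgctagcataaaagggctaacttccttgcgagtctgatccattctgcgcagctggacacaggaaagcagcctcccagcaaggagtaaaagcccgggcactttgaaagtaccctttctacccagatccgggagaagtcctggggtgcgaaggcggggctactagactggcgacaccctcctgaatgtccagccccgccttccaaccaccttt
Actn1: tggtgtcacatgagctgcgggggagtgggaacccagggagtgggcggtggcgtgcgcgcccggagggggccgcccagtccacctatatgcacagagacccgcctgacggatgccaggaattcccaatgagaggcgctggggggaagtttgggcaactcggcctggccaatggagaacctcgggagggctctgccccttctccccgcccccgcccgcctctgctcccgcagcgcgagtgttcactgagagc
Itgb1: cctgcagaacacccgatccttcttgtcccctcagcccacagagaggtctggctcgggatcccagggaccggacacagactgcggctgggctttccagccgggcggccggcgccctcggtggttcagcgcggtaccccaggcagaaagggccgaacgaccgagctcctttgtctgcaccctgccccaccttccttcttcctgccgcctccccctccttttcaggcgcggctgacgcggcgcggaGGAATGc
Vcl: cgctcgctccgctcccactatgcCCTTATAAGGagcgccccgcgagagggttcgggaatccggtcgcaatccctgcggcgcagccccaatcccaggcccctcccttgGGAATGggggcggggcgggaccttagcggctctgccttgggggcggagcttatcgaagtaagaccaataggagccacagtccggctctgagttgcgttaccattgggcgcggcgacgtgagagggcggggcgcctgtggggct
The Vcl window held a CArG box (CCTTATAAGG) that begins 227 bases before the start and a GGAATG that begins 143 bases before it. The Itgb1 window held a GGAATG that begins 7 bases before the start. Neither motif was found in the Itga1 and Actn1 windows, which says only that these letters are not there. Over the windows of 300 bases (250 before and 50 after the start), a CArG box stood in 3 of the 37 windows of the 29 members with an entry (8.11%; Itgb6, Trip6 and Vcl), where 1.63% of 32851 windows of all genes held one. The TEAD motif stood in 5 of the 37 (13.5%; Trip6, Itgb1, Vcl, Lpp and Flna), near the 14.7% of all windows. Trip6 carries both motifs and was not called, with a log2 fold change of -0.17 ± 0.06 (SE). Itgb6 was too low to test. Its CArG box lay in the window chr2:60673694-60673943 and not in that of its other start.

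Itga1 and Itga6 rose, Itgb1 rose slightly, Itga7 and Itgav fell, and the other 6 tested subunits did not pass. Of the 18 integrin members 11 passed the filter on low counts, and of these 3 were called higher and 2 lower. At least 2-fold changes with a call were seen in 2 of the 11, against 9.22% of all genes tested. The libraries of the lines did not overlap in 5 of the 11, near the 47.6% of all genes tested. Of the 12313 genes tested in this comparison, 33.9% were called, and among the integrins tested the share was 45.5%. The median log2 fold change of the tested integrins was 0.14, against 0.01 for all tested genes.

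Itga1 encodes the alpha1 subunit, which with beta1 forms a collagen receptor that prefers basement membrane collagen. The gene (chromosome 13, 114953096 to 115101964) had 0.222, 0.304 and 0.465 CPM in the MOSE-NEO libraries and 13.8, 20 and 23.4 CPM in the MOSE-PAX8 libraries. It was close to the detection limit in the reference line, with 28 counts over 3 libraries, and no library of one line came near the other. The rise was 56.8-fold (log2 fold change 5.83 ± 0.30 SE, edgeR adjusted p = 5.24e-06).

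Itga6 encodes the alpha6 subunit, a laminin receptor with beta1 and, in hemidesmosomes, with beta4. The gene (chromosome 2, 71745616 to 71858416) had 11.3, 7.65 and 12.6 CPM in MOSE-NEO and 51.6, 58.3 and 69 CPM in MOSE-PAX8. Every MOSE-PAX8 library was far above every MOSE-NEO library, and the rise was 5.63-fold (log2 fold change 2.49 ± 0.18 SE, edgeR adjusted p = 3.03e-05). Its hemidesmosome partner Itgb4 was scarce in both lines, at 0.477, 0.696 and 0.332 CPM in MOSE-NEO and 0.438, 0.44 and 0.524 in MOSE-PAX8, and was not called (edgeR adjusted p = 0.893).

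The other laminin receptors went another way or showed no call. Itga7, the alpha7 subunit best known from muscle (chromosome 10, 128933818 to 128958282), had 433, 325 and 389 CPM in MOSE-NEO and 212, 209.8 and 194 in MOSE-PAX8. The groups did not overlap, and the gene fell 1.86-fold (log2 fold change -0.90 ± 0.11 SE, edgeR adjusted p = 0.000468). Itga3, the alpha3 subunit of the main epithelial laminin receptor, had 758, 680.1 and 722 CPM in MOSE-NEO and 691, 597 and 639.9 in MOSE-PAX8. Its groups overlapped, with a log2 fold change of -0.16 ± 0.09 (SE) and an edgeR adjusted p of 0.196.

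Among the RGD receptors, Itgav encodes the alphav subunit, which pairs with several beta subunits to bind vitronectin, fibronectin and latent TGF-beta. The gene (chromosome 2, 83724397 to 83806916) had 967, 793 and 781 CPM in MOSE-NEO and 675, 643 and 588 in MOSE-PAX8. All MOSE-PAX8 libraries lay below all MOSE-NEO libraries, and the fall was 1.33-fold (log2 fold change -0.41 ± 0.11 SE, edgeR adjusted p = 0.018). The call ended without MOSE-PAX8 replicate 3 (edgeR adjusted p = 0.0825), with MOSE-NEO 1 and MOSE-PAX8 2 both left out (0.0555), and with the median of chromosome 2 as an offset (0.0552), within a range of 0.000478 to 0.0825 over all alternatives. Itga5, the alpha5 subunit of the classical fibronectin receptor, had 40.2, 43.1 and 37.1 CPM in MOSE-NEO and 41.5, 46.1 and 47.1 in MOSE-PAX8, and was not called (log2 fold change 0.16 ± 0.09 SE, edgeR adjusted p = 0.199).

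Of the beta subunits only Itgb1 was called among the 5 that could be tested (20%, against 33.9% of all genes tested). Beta1 is the partner shared by most matrix-binding alpha subunits. Its gene (chromosome 8, 128685654 to 128733200) had 928, 888 and 909 CPM in MOSE-NEO and 1238, 1025 and 1259 in MOSE-PAX8. MOSE-PAX8 replicate 2 was the lowest of its line and still above all of MOSE-NEO. The rise was 1.29-fold (log2 fold change 0.37 ± 0.10 SE, edgeR adjusted p = 0.021). It lost its call without MOSE-NEO replicate 2 (edgeR adjusted p = 0.0694), MOSE-PAX8 replicate 1 (0.0736) or MOSE-PAX8 replicate 3 (0.0949), within a range of 0.00188 to 0.0949. Without MOSE-PAX8 replicate 3 the count of called integrins was 3 instead of 5.

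Itgb5 and Itgb8 encode partners of alphav, and beta8 acts in the activation of latent TGF-beta. Itgb5 had 269.7, 307 and 286 CPM in MOSE-NEO and 335, 297 and 315 in MOSE-PAX8 (log2 fold change 0.14 ± 0.08 SE, edgeR adjusted p = 0.26). Itgb8 had 246, 156 and 216 CPM in MOSE-NEO and 207, 171 and 171 in MOSE-PAX8 (log2 fold change -0.17 ± 0.16 SE, edgeR adjusted p = 0.465). The libraries of the lines overlapped for both genes. Itgb3 encodes the beta subunit of the vitronectin receptor of osteoclasts. It had 0.349, 0.435 and 0.332 CPM in MOSE-NEO and 0.273, 0.44 and 0.647 in MOSE-PAX8, with an SE of 0.41 on a log2 fold change of 0.29.

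**Figure D1:**
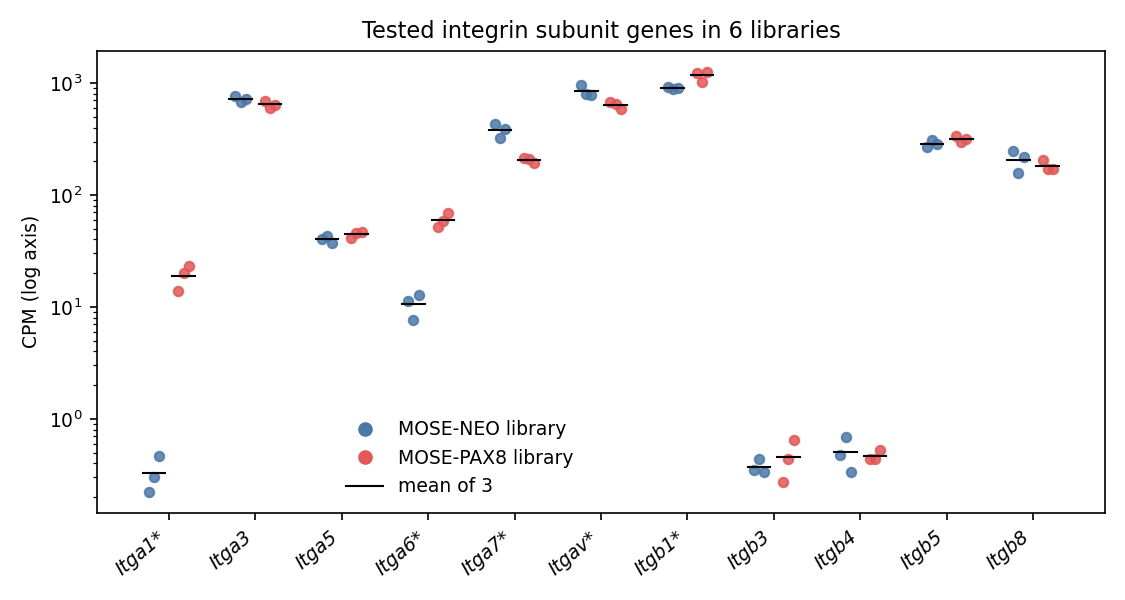
CPM of the 11 integrin subunit genes that passed the filter (log axis), 1 point per library, with a line at the mean of 3; an asterisk marks a call by edgeR. Itga1 and Itga6 stand apart between the lines, whereas Itgb3 and Itgb4 lie below 1 CPM in all libraries.

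The other 7 integrin members were too low to test. Itga9 was at 0 counts in all 6 libraries. Summed over a line, Itga4 had 0 in MOSE-NEO and 5 in MOSE-PAX8, Itga8 had 2 and 0, and Itga2, the other widely expressed collagen receptor subunit, had 4 and 1. Itgb6 had 2 and 1 counts, Itgb7 2 and 9, and the collagen receptor subunit Itga11 8 and 13. At this depth a difference in these genes was not detectable. Of the integrins outside the members, the leukocyte subunit Itgal was the only one called, at 2.33 CPM in MOSE-NEO and 0.967 in MOSE-PAX8 (mean of 3), and was named after its values were seen.

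Levels of different subunits were compared per length, as RPKM (CPM per kilobase of annotated exon). In both lines Itgb1 was the most abundant subunit, at 223 ± 4.98 RPKM in MOSE-NEO and 288 ± 31.7 in MOSE-PAX8 (SD, n = 3). Itga3 came next with 126 and 113 RPKM. In MOSE-NEO Itgb5 and Itgav, at 80.9 and 78.8 RPKM, did not differ beyond their spread, and Itga7 followed at 47.2. In MOSE-PAX8 the order was Itgb5 (88.9 RPKM), Itgav (59.1), Itga7 (25.3), Itgb8 (16.5) and Itga5 (9.10). The order below Itgb1 and Itga3 depends on the length used. Annotated exons and longest transcript were 8092 and 4020 bases for Itga7, 10744 and 7054 for Itgav, and 3553 and 3282 for Itgb5. With the longest transcript as the length, Itga7 and Itgav would stand higher relative to Itgb5. Itga6 moved from 1.17 to 6.61 RPKM and Itga1 from 0.0178 to 1.02, so both stayed minor subunits by transcript level in the line where they rose.

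Shares of the 12 alpha subunits that can pair with beta1 (the 11 members and Itga10) were computed within each library from counts per kilobase, with alphav included although it also pairs with other beta subunits. Itga3 made up 46.3%, 49% and 49.3% of this pool in MOSE-NEO and 53.7%, 50.3% and 53.5% in MOSE-PAX8. Itga7 made up 18.7%, 16.5% and 18.7% against 11.6%, 12.5% and 11.4%. Itga6 made up 0.436%, 0.349% and 0.546% against 2.54%, 3.11% and 3.65%. Each of these 3 separated the lines without overlap, Itga3 and Itga6 higher and Itga7 lower in MOSE-PAX8. The shares of Itga1 and Itga5 were also higher without overlap, Itga5 at 2.84%, 3.6% and 2.93% against 3.73%, 4.5% and 4.55%. The larger share of Itga3 stood beside a level that was not called (log2 fold change -0.16).

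Grouped by ligand, the shares were compared by an exact permutation test that cannot go below p = 0.1 with 3 libraries against 3, so none could pass 0.05. The laminin-binding subunits (Itga3, Itga6 and Itga7) held 66.6% ± 1.71 of it in MOSE-NEO and 67.5% ± 1.38 in MOSE-PAX8 (SD, n = 3; exact permutation p = 0.6, two-sided). The RGD-binding subunits (Itga5, Itga8 and Itgav) held 33.1% ± 1.63 and 31.9% ± 1.32 (SD, n = 3; exact permutation p = 0.3). The collagen-binding subunits (Itga1, Itga2, Itga10 and Itga11) held 0.354%, 0.202% and 0.159% in MOSE-NEO and 0.45%, 0.804% and 0.753% in MOSE-PAX8 (exact permutation p = 0.1). Itga10, at 1.34 to 5.08 CPM, carried most of this class in MOSE-NEO and Itga1 most of it in MOSE-PAX8. Beta1 held 69.1% ± 0.734 of the transcripts of the 7 beta subunits in MOSE-NEO and 73.1% ± 1.54 in MOSE-PAX8 (SD, n = 3; exact permutation p = 0.1). The libraries of the lines did not overlap in the collagen-binding and beta1 shares, both at that smallest p, and overlapped in the laminin-binding and RGD-binding shares. Adjusted over the 4 shares the p ran from 0.2 to 0.6.

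The summed level of these 12 alpha subunits and that of Itgb1 moved in opposite directions. The alpha sum was 287, 243 and 257 RPKM in MOSE-NEO and 225, 208 and 209.5 in MOSE-PAX8. Set over Itgb1, it gave a ratio of 1.26, 1.12 and 1.15 in MOSE-NEO and 0.742, 0.828 and 0.679 in MOSE-PAX8. The ratio was chosen after the values were seen and carries no test. With the longest transcript as the length of each gene it was 1.58 and 0.98 (mean of 3).

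**Figure D2:**
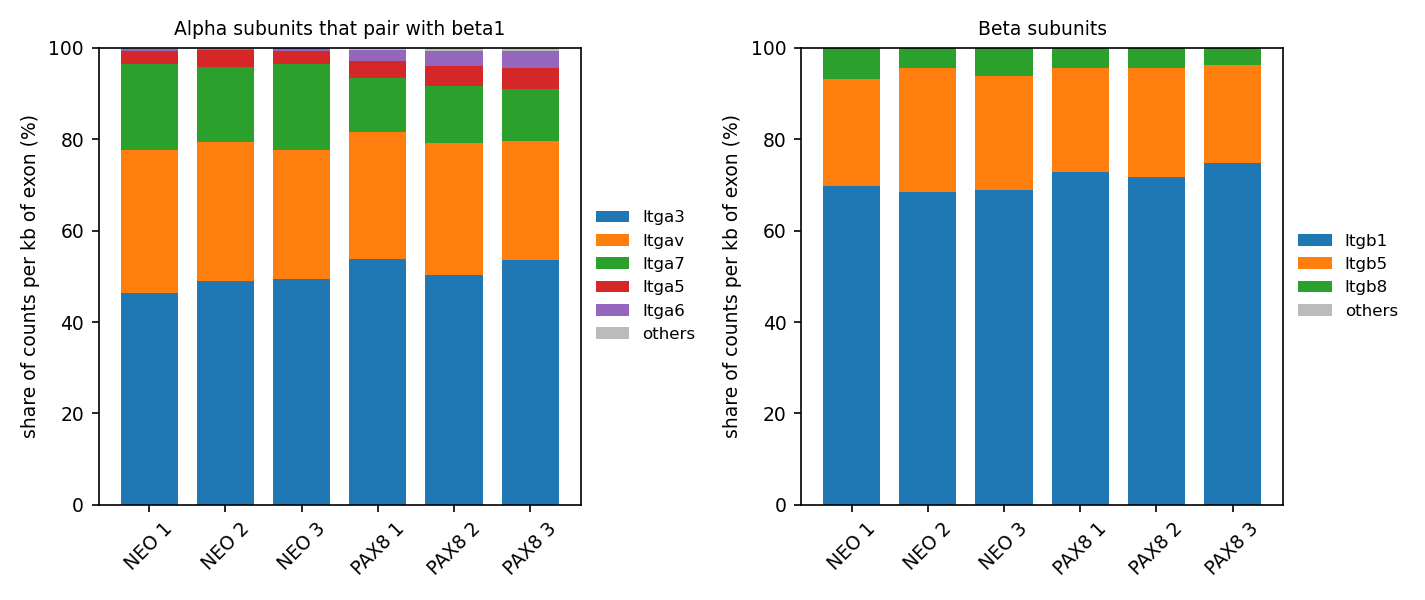
Share of each subunit (percent of summed counts per kilobase of exon) in each library, for the alpha subunits that can pair with beta1 (left) and for the beta subunits (right). Itga7 takes a smaller and Itga6 a larger share in the MOSE-PAX8 libraries, and Itgb1 is above 71% in all 3 of them and below 70% in MOSE-NEO.

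Among the cytoplasmic partners, several genes that link adhesions to actin rose (Actn1, Svil, Flna, Vcl), and the linker Tns3 and the kinase Src fell. Of 22 partners 21 passed the filter, and 9 were called higher and 2 lower. The share called was 52.4% against 33.9% of all genes tested, with 17.9% of all genes called higher and 16.1% lower. The median log2 fold change of the tested partners was 0.26. In 16 of the 21 the libraries of the lines did not overlap, against 47.6% of all genes tested. A call with a change of at least 2-fold was made for 2 of the 21, near the 9.22% of all genes. A test against a fold of 1.5 called 3 of the 21, against 8.69% of all genes.

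Of the 8 linkers between integrins and actin 5 rose and 1 fell (75% called, against 33.9% of all genes tested). Actn1 encodes alpha-actinin-1, which cross-links actin filaments and binds integrin tails. The gene (chromosome 12, 80167547 to 80260371) had 377, 368 and 365 CPM in MOSE-NEO and 714, 658 and 755 in MOSE-PAX8. The lines were clearly separated, and the rise was 1.92-fold (log2 fold change 0.94 ± 0.08 SE, edgeR adjusted p = 7.83e-05). Svil encodes supervillin, a membrane-bound organiser of actin and myosin (chromosome 18, 4920540 to 5119299). It had 17, 15.4 and 16.1 CPM in MOSE-NEO and 33.4, 27.3 and 25.9 in MOSE-PAX8, a rise of 1.78-fold (edgeR adjusted p = 0.000706).

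Flna, the filament cross-linker filamin A, rose 1.44-fold from 806 ± 104 to 1159 ± 42.8 CPM (SD, n = 3), with no overlap between the lines (edgeR adjusted p = 0.00564). Vcl, or vinculin, which reinforces the link from talin to actin, ranged from 232 to 316 CPM in MOSE-NEO and from 338 to 393 in MOSE-PAX8 (log2 fold change 0.45 ± 0.12 SE, edgeR adjusted p = 0.0214). The gene lies on chromosome 14, where the median gene was lower in MOSE-PAX8 by a log2 fold change of -0.43, and relative to that median its log2 fold change was 0.88. Its call ended without MOSE-NEO replicate 2 or 3 (edgeR adjusted p = 0.0667 and 0.0554) and without MOSE-PAX8 replicate 1 or 3 (0.0566 and 0.0815), within a range of 0.000946 to 0.0815. Exons of Ap3m1, on the other strand, cover 25.5% of the annotated exon bases of Vcl, so its counts are uncertain to that extent.

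Talins, the proteins that activate integrins, showed little difference. Tln1, the more abundant, had 861, 779 and 665 CPM in MOSE-NEO and 720.04, 775 and 665 in MOSE-PAX8, with overlapping groups (log2 fold change -0.09 ± 0.11 SE, edgeR adjusted p = 0.572). Tln2 was called higher at 22.7 ± 1.24 against 18.9 ± 1.07 CPM (SD, n = 3; edgeR adjusted p = 0.0435). That call ended under 11 of 15 alternatives, including the omission of any 1 library, with adjusted p from 0.0194 to 0.155.

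Tensins bind integrin tails and actin in fibrillar adhesions, and 1 of the 2 members was called. Tns1 had 954, 759 and 939 CPM in MOSE-NEO and 1102, 1012 and 1065 in MOSE-PAX8, where the groups did not overlap but the test was not passed (log2 fold change 0.26 ± 0.11 SE, edgeR adjusted p = 0.0937). Tns3 fell 1.19-fold, from 320.4 ± 9.40 to 269 ± 7.96 CPM (SD, n = 3; edgeR adjusted p = 0.0256). The call of Tns3 ended without MOSE-NEO replicate 2 (edgeR adjusted p = 0.0676) and without MOSE-PAX8 replicate 1, 2 or 3 (0.0549, 0.0607 and 0.12). It ended as well with MOSE-NEO 1 and MOSE-PAX8 2 both left out (0.0598) and with the chromosome median as an offset (0.0591), within a range of 0.0017 to 0.12. Of the tensins outside the members, Tns4 rose 2.65-fold from 2.72 to 7.16 CPM (edgeR adjusted p = 0.000794) and Tns2 was not called (0.141), and both were named after their values were seen.

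Of the 5 kinases and signalling scaffolds 1 fell and 0 rose (20% called, against 33.9% of all genes tested). Src, the tyrosine kinase that phosphorylates adhesion proteins, fell 1.28-fold, from 106 to 112 CPM in MOSE-NEO to 79.9 to 88.8 in MOSE-PAX8 (log2 fold change -0.35 ± 0.07 SE, edgeR adjusted p = 0.00629). Ptk2, focal adhesion kinase, had 353, 347 and 367 CPM in MOSE-NEO and 329, 325 and 334 in MOSE-PAX8. Its groups did not overlap, but it was not called (log2 fold change -0.11 ± 0.07 SE, edgeR adjusted p = 0.275). Bcar1 (p130Cas), Pxn (paxillin) and Git2, an adaptor that binds paxillin, had log2 fold changes of 0.10, 0.12 and -0.08, each with an SE of at most 0.09, and were not called.

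In the complex of integrin-linked kinase, PINCH and parvin, which bridges beta tails to actin, 3 of 4 members rose, but 2 of them at very low counts. That is 75% called, against 33.9% of all genes tested. Lims2, or PINCH2, had 0.762, 0.435 and 1.1 CPM in MOSE-NEO and 4.73, 2.95 and 3.61 in MOSE-PAX8, a rise of 4.82-fold (log2 fold change 2.27 ± 0.33 SE, edgeR adjusted p = 0.0011). Its paralog Lims1, or PINCH1, was far more abundant and was not called, at 286 ± 22.5 and 294 ± 41.1 CPM (SD, n = 3; edgeR adjusted p = 0.806). Per length this was 58.4 and 60.2 RPKM for Lims1 against 0.25 and 1.23 RPKM for Lims2.

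Parva, or alpha-parvin, rose 1.31-fold from 214 ± 9.40 to 280.2 ± 20.2 CPM (SD, n = 3; edgeR adjusted p = 0.00701). It lies on chromosome 7, whose median log2 fold change was 0.27, and relative to that median its log2 fold change was 0.12 (edgeR adjusted p = 0.312, range 0.000171 to 0.312 over the alternatives). For Ilk 25, 26 and 25 reads were counted in the reference line and 70, 76 and 69 in the PAX8 line (log2 fold change 1.23 ± 0.24 SE, edgeR adjusted p = 0.005). Its exons (chromosome 7, 105736592 to 105742925) overlap those of Taf10 and Rrp8 on the other strand over 89.7% of their bases, and 69.3% of its words of 50 bases occur in transcripts of other genes. The level of Ilk and its fold change are therefore uncertain, and how many of its reads were set aside was not tested.

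The LIM domain proteins of adhesions and stress fibres included 1 call among 4 tested (25%, against 33.9% of all genes tested). Zyx, or zyxin, which gathers at adhesions under tension, ranged from 327 to 364 CPM in MOSE-NEO and from 434 to 502 in MOSE-PAX8, a rise of 1.39-fold (log2 fold change 0.47 ± 0.09 SE, edgeR adjusted p = 0.00384). Lpp, a relative of zyxin, had 461, 433 and 310.3 CPM in MOSE-NEO and 447, 507 and 392 in MOSE-PAX8, with overlapping groups (edgeR adjusted p = 0.479). Pdlim7, a PDZ and LIM protein, missed the threshold at 133 ± 13 and 159 ± 8.19 CPM (SD, n = 3; edgeR adjusted p = 0.0535) and passed it in 4 of 15 alternatives. Trip6, another zyxin relative, also missed it at 84.7 and 75.4 CPM (edgeR adjusted p = 0.0778). Tgfb1i1, or Hic-5, was too low to test, with 19 and 22 counts summed over the libraries of each line.

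**Figure D3:**
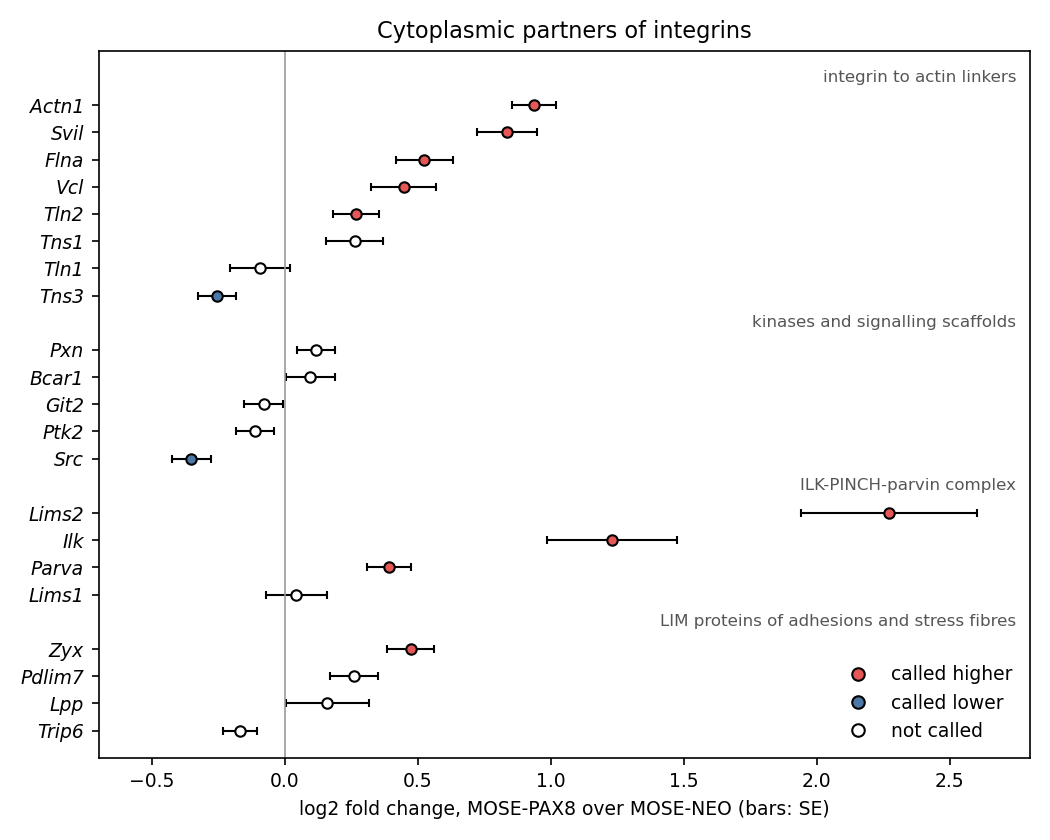
Log2 fold change of the 21 tested partners, MOSE-PAX8 over MOSE-NEO, by role, with bars for the SE; filled points were called by edgeR. Of the linkers, Tns3 and Tln1 lie to the left of 0, at -0.25 and -0.09, and the others, such as Actn1, to the right. The kinases and scaffolds lie between -0.35 and 0.12.

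The rest of the adhesion machinery was read from a further 79 genes, of which 67 were tested, 15 called higher and 15 lower. That share of 44.8% stands against 33.9% of all genes. By role, of 14 LIM proteins 7 rose and 2 fell, and of 13 linkers 6 rose and 2 fell. Of 21 tested signalling genes 2 rose and 6 fell, of 5 tested membrane co-receptors 0 rose and 3 fell, and of 9 tested activators and inhibitors of integrins 0 rose and 1 fell. Whether these roles differ from each other was not tested.

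Among those that rose were LIM proteins and a vinculin-binding adaptor. Fhl2, a LIM-only protein that shuttles between adhesions and the nucleus, rose 4.18-fold to 11.1 ± 1.22 CPM, and Pdlim5 2.44-fold to 301 ± 30.4 CPM (SD, n = 3). Csrp1, a LIM protein of smooth muscle, rose 2.05-fold from 170.4 ± 10.5 to 349 ± 46.7 CPM. Sorbs2, an adaptor that binds vinculin and actin regulators, had 0.0318, 0.087 and 0.0664 CPM in MOSE-NEO and 4.02, 7.35 and 10.4 in MOSE-PAX8. Fyn, a kinase of the Src family, had 0.794, 0.435 and 1.33 CPM in MOSE-NEO and 8.72, 9.81 and 14.1 in MOSE-PAX8. Fyn thus rose 12.4-fold (edgeR adjusted p = 0.000108) but stayed below Src, at 2.5 against 19.4 RPKM in MOSE-PAX8 (mean of 3). Src fell, and so did Yes1, a further kinase of the family, from 74.4 to 60.7 CPM (mean of 3; edgeR adjusted p = 0.0375). Yes1 was named after its values were seen.

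Among those that fell was the second focal adhesion kinase. Ptk2b, or Pyk2, had 178, 234 and 180.3 CPM in MOSE-NEO and 79.1, 86.1 and 71.7 in MOSE-PAX8, a fall of 2.5-fold (edgeR adjusted p = 0.000106). Sorbs3, or vinexin, fell 1.83-fold and Ajuba, a LIM protein of junctions and adhesions, 1.48-fold. All 3 lie on chromosome 14, and relative to its median the log2 fold changes were -0.89, -0.44 and -0.13, where Ajuba lost its call (edgeR adjusted p = 0.21). Cav1, the coat protein of caveolae, fell 1.59-fold, and Shc1, an adaptor of receptor and integrin signalling, 1.51-fold.

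The genes listed as ligands of these receptors moved in both directions. Of 33 genes 29 were tested, and 9 were called higher and 8 lower. That is 58.6%, against 33.9% of all genes tested (17.9% higher and 16.1% lower). Of 11 tested genes listed under fibronectin and other RGD or integrin-binding proteins 6 rose, Tgfb2 among them, and 1 fell. Tnc, tenascin C, went from 3.84, 4.7 and 2.46 CPM to 460, 775 and 717, and Spp1, osteopontin, from 0.667, 0.609 and 0.631 to 9.24, 9.33 and 19.1. Fn1, Tgfb2 and Thbs1 rose 4.19-fold, 4.11-fold and 2.25-fold. Whether the product of Tgfb2 is a ligand of these integrins was not tested. Nid2, a basement membrane linker on chromosome 14, fell 5.93-fold.

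Of 10 collagen genes 6 fell and 1 rose (70% called, against 33.9% of all genes tested), while the collagen receptor subunit Itga1 rose. The fibrillar chains Col1a2, Col3a1, Col5a1 and Col5a2 fell 2.58-fold, 1.87-fold, 2.69-fold and 1.98-fold. The exception was Col4a1 of the basement membrane, named after its values were seen, which went from 3842 to 5216 CPM (mean of 3; log2 fold change 0.44 ± 0.10 SE). Of 8 tested laminin chains 2 rose and 1 fell, which at 37.5% is near the 33.9% called among all genes tested. Those that rose were Lamb3 (log2 fold change 1.68) and Lamc1, the gamma1 chain of most laminins (0.45), and Lama4 fell (-1.15). These 3 were also named after their values were seen.

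**Figure D4:**
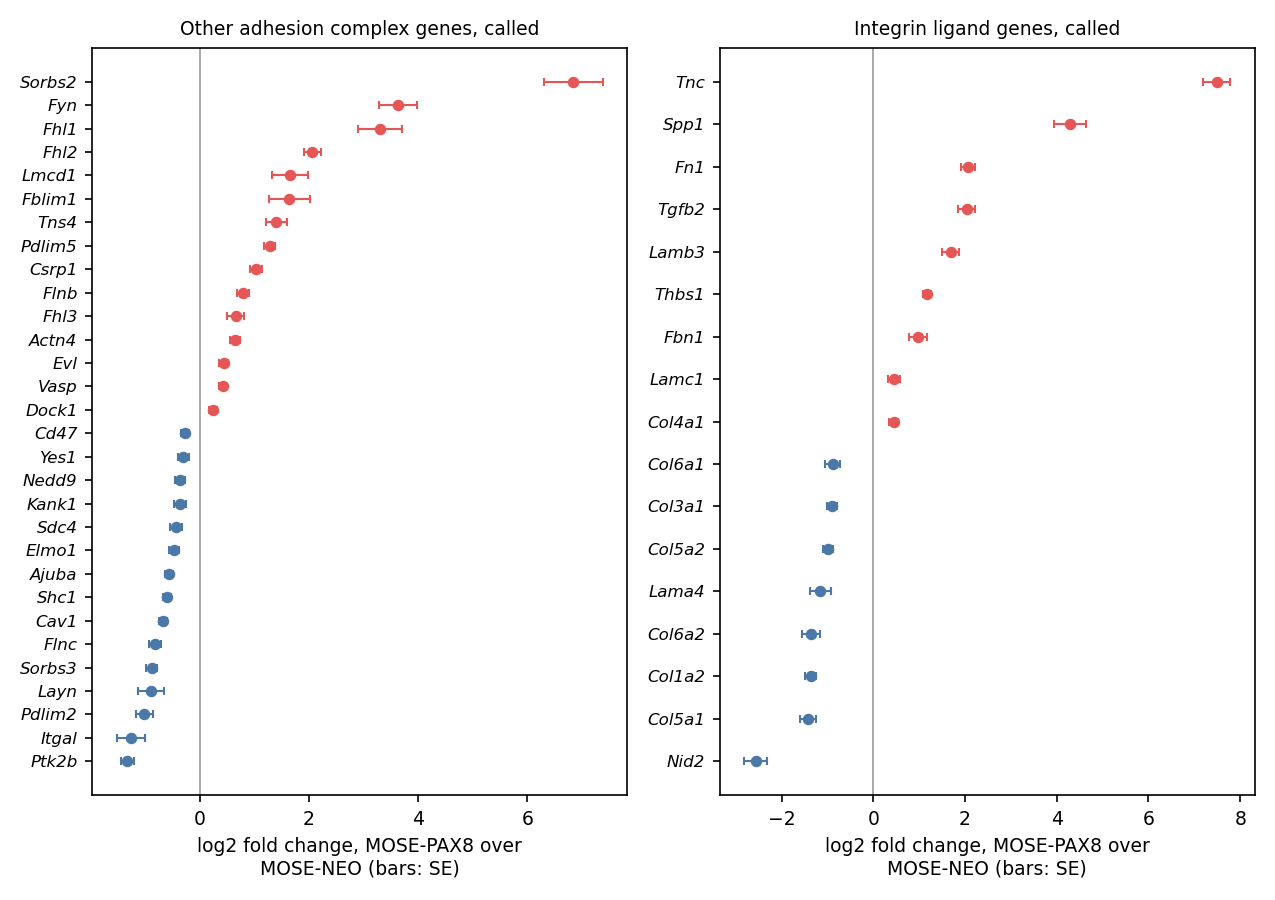
Log2 fold change with SE of the 30 called genes among the other adhesion complex genes (left) and the 17 called ligand genes (right), ordered by size; red is higher and blue lower in MOSE-PAX8. Sorbs2 and Tnc lie farthest to the right, and Ptk2b and Nid2 farthest to the left.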

How the data were processed

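Gene expression was measured in 6 RNA sequencing libraries, 3 per line. The authors deposited raw read counts per Ensembl gene, 1 table per library. They used cutadapt 1.13, STAR, HTSeq 0.6.1p1 and DESeq2 with mm10, per the submitters' processing notes. The annotation, strand setting and handling of ambiguous reads were not given in the sources used here. Of 25006 identifiers, 24991 matched GENCODE release M21 (mm10), which gave symbols, coordinates and exon lengths.

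All counts were fitted with edgeR 4.0.16 in R 4.3.3 (quasi-likelihood test, TMM factors, filterByExpr), with Benjamini-Hochberg adjustment over 12313 genes, and a call was an adjusted p below 0.05. CPM values use the TMM factors, and RPKM values are these CPM per kilobase of annotated exon. The standard error (SE) was worked back from the fold change and its test statistic. Library totals ran from 23623762 to 36367825 counts. A count of 0 allows up to 3 counts, or 0.0820 to 0.130 CPM on this scale, counting error only. Alternatives were RLE and upper-quartile factors, DESeq2 1.42.0, limma-voom (limma 3.58.1), the replicate number as a block, no filter or 1 CPM in 3 libraries as the filter, libraries left out, the chromosome median as an offset and a test against a fold of 1.5. The fit was also run on simulated counts for the 2 lines, with 12217 genes tested. At a simulated fold of 1.5 it found 43 of 66 altered genes (65.2%). At a fold of 2 it found 58 of 71 (81.7%), and at a fold of 4 all 60 (100%). It also called 12 of 12020 unaltered genes. Far fewer genes were altered there than the 33.9% called in the real libraries, so these rates may not carry over to them.

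The members and lists were chosen with earlier results of these data known. Values per library were given for Pax8, for every tested integrin, for called partners past 0.58 in absolute log2 fold change and for the 4 most abundant partners that were not called. From each other list, up to 5 called genes per direction with the smallest adjusted p were named. Other genes named were chosen after their values were seen. Mouse promoter sequences were those of RefSeq (GRCm38.p6), for 29 of the 40 members.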

Additional observations from a re-analysis of the deposited data

How the results depend on the processing

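Of the 16 called members, 10 kept their call in the 15 alternatives that test against no change, and 0 turned direction. A call was lost in at least 1 by 6 (Itgav, Itgb1, Tln2, Vcl, Tns3 and Parva). The cause was not tested. A test against a fold of 1.5 called 1070 genes in all, 3 integrins and 3 partners. With 1 library left out in turn, 3 to 5 integrins, 8 to 11 partners, 24 to 28 other adhesion genes and 16 to 20 ligands were called, and 2859 to 3908 genes in all. The 4 share differences kept their direction, but with 1 library left out the laminin-binding one ran from 0.24 (without MOSE-NEO 1) to 1.81 (without MOSE-NEO 3) percentage points and the RGD-binding one from -2.21 (without MOSE-NEO 3) to -0.675 (without MOSE-PAX8 3). From counts not divided by length, the collagen-binding difference was 1.15 percentage points in place of 0.431 and the RGD-binding one -1.95 in place of -1.27. Members without a call that changed sign were Itgb3 (-0.058 to 0.557 with 1 library left out, negative without MOSE-PAX8 3), Itgb4 (-0.303 to 0.194, positive without MOSE-NEO 2), Lims1 (-0.059 to 0.143, negative at -0.019 without MOSE-NEO 2 and again without MOSE-PAX8 1) and Itgb8 (0.013 with MOSE-NEO 1 and MOSE-PAX8 2 both left out). The length of the longest transcript, chosen after seeing the data, moved the difference in the ratio of alpha subunits to Itgb1 from -0.427 to -0.595.

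The replicate numbers showed no clear pairing of the libraries, although 3 libraries per line are too few to exclude one. Deviations from the line means correlated at -0.465, 0.0541 and 0.402 for numbers 1 to 3, and 2 of 6 libraries correlated best with their own number. With the number as a block in the fit, 3933 genes, 5 integrins, 10 partners, 30 other adhesion genes and 20 ligands were called. Counts per gene limit the result for genes near the floor of 3 counts, such as Itga2, Itga4 and Itgb6.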
